A study of Sus scrofa with 3 samples.

Results

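Adenosine is a purine nucleoside that dampens immune and inflammatory responses and widens blood vessels. Outside the cell it is made stepwise from ATP: the ectonucleotidase CD39 (gene ENTPD1) removes phosphates down to AMP, and CD73 (gene NT5E) turns AMP into adenosine. It then acts on G protein-coupled receptors, is deaminated to inosine by adenosine deaminase (ADA), or enters cells through equilibrative transporters and is phosphorylated back to AMP by adenosine kinase (ADK). CD73 is one of the surface antigens by which human mesenchymal stromal cells are defined.

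Genes of adenosine production, clearance and reception were examined in 3 pig libraries, 1 each from mesenchymal stem cells of the bone marrow (BM-MSC), from cells described only as attached bone marrow cells (BMAC) and from peripheral blood mononuclear cells (PBMC). The genes were chosen by symbol: ENTPD1, NT5E, ADA, DPP4, ADK, SLC29A1, ADORA1, ADORA2A and ADORA2B. All 9 had a row in the count files, out of 26466 symbols. The count column of the BM-MSC sample is headed pMSC, and it was taken as BM-MSC because it was deposited with the sample of that title. No genotype, treatment, age or time is given for any group, and the labels do not say which animals the cells came from, how they were isolated or whether they were passaged. The series was made to compare expression profiles between these populations. Per the labels' protocols, each library was made from 500 ng of total RNA with the Lexogen QuantSeq kit, which primes on the poly(A) tail and so samples the 3' ends of transcripts.

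Total counts were 17069344 in BM-MSC, 15122997 in BMAC and 15445903 in PBMC. Levels are given as counts per 1000000 (CPM), which are not scaled by transcript length and are compared here for 1 gene across libraries, not between genes. A gene was called different between libraries when log2((CPM + 1)/(CPM + 1)) was at least 2 in size, which is 4-fold after the added 1 CPM, and its level was 10 CPM or more in the higher of them. A gene that reached 10 CPM in at least 1 library of a pair is termed measured. With 1 library per population no difference has a replicate check and no test was made. Ranges in parentheses are 95% intervals that cover counting error alone, and in bulk RNA fewer cells of a type and less RNA per cell cannot be told apart. The labels were set against marker genes. The 20 leukocyte markers summed to 11.95 CPM in BM-MSC, with 22.9 CPM in BMAC and 4760 CPM in PBMC. PTPRC, the gene of the leukocyte antigen CD45, stood at 1.11 and 1.85 CPM in BM-MSC and BMAC and 2884 CPM in PBMC, and CD3D, CD79B, FCN1 and S100A8 had 0 counts in both marrow libraries. CD14, a monocyte and macrophage antigen, stood at 3.63, 17.3 and 12.9 CPM in BM-MSC, BMAC and PBMC and so made up most of the sum in BMAC. The 15 stromal markers summed to 25126, 24361 and 104 CPM in the same order, and SPARC, LUM and BGN had 0 counts in PBMC.

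The 9 genes were spread over a wide range and were detected in every library, with at least 13 counts each. NT5E and ADA stood at opposite ends: NT5E was 22.9-fold higher in BM-MSC and 21.1-fold higher in BMAC than in PBMC, and ADA was lower in both. ENTPD1, which feeds AMP to CD73, differed most between the 2 marrow populations and was higher in BMAC. Of the receptors, ADORA2B was also higher in BMAC. In BM-MSC 6 genes reached 10 CPM, in BMAC 6 and in PBMC 5, and 7 did so in at least 1 library. ADORA1 and SLC29A1 reached it in none.

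**Figure D1:**
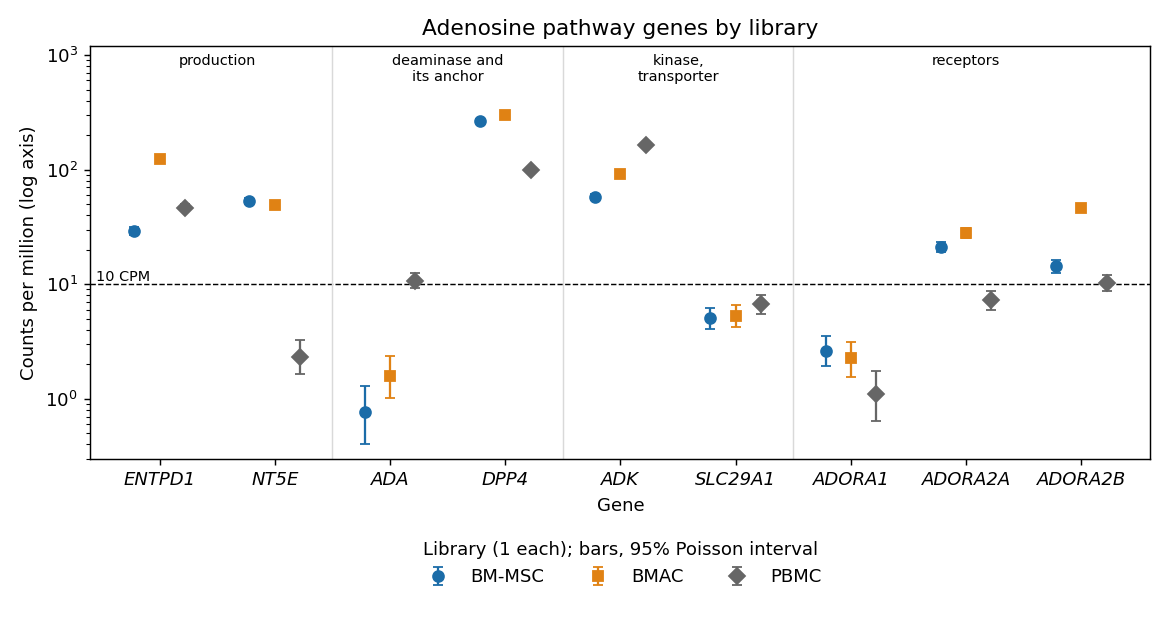
Level of the 9 genes in CPM on a log axis, 1 library each of BM-MSC, BMAC and PBMC, with 95% Poisson intervals; the dashed line marks 10 CPM. NT5E separates both marrow libraries (53.4 and 49.3 CPM) from PBMC (2.33 CPM), ADA runs the other way, and ENTPD1 and ADORA2B are highest in BMAC.

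NT5E stood at 53.4 CPM in BM-MSC (50.02 to 57.0), 49.3 CPM in BMAC (45.8 to 52.9) and 2.33 CPM in PBMC (1.63 to 3.23), from 912, 745 and 36 counts. Both marrow libraries were high and PBMC was low, with intervals that lay far apart. The level in BM-MSC was 22.9-fold that in PBMC (16.4 to 32.9), a log2 ratio of 4.03, and 4.73% of the measured genes were as far or farther towards BM-MSC. The level in BMAC was 21.1-fold that in PBMC (15.1 to 30.4), a log2 ratio of 3.92, with 5.51% of measured genes as far towards BMAC. Between BM-MSC and BMAC the ratio was 1.08 (0.983 to 1.20), so these neighbours did not differ beyond counting error. NT5E overlaps the row LOC102157437, which held 346, 352 and 123 counts in BM-MSC, BMAC and PBMC. Since the strand setting is not given, reads of this pair of rows cannot be told apart, and the level in PBMC in particular is uncertain.

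ENTPD1, the gene of CD39, was expressed in all 3 populations. It stood at 29.1 CPM in BM-MSC (26.6 to 31.8), 124.8 CPM in BMAC (119.3 to 130.6) and 46.6 CPM in PBMC (43.3 to 50.1). BMAC was the high library and BM-MSC the low one, with PBMC between them. The level in BM-MSC was 0.233 of that in BMAC (0.211 to 0.258), a log2 ratio of -2.06. This was just past the size rule, and 3.04% of measured genes were as far towards BMAC. With median-of-ratios scaling the log2 ratio was -1.999 and with 5 CPM added -1.93, both short of the limit, so the call was lost. Against PBMC, ENTPD1 was 2.68-fold higher in BMAC (2.46 to 2.92) and 1.60-fold lower in BM-MSC (1.43 to 1.80), neither of them past the rule.

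ADA, the cytosolic and cell-surface adenosine deaminase, was low in both marrow populations. It stood at 0.762 CPM in BM-MSC (0.406 to 1.30), 1.59 CPM in BMAC (1.02 to 2.36) and 10.7 CPM in PBMC (9.17 to 12.5), from 13, 24 and 166 counts. PBMC was high and both marrow libraries were low. The log2 ratio was -2.74 for BM-MSC against PBMC and -2.18 for BMAC against PBMC, which is 14.1-fold (8.03 to 27.1) and 6.77-fold (4.40 to 10.9) higher in PBMC without the added 1 CPM. The interval of ADA in PBMC spans 10 CPM, so the calls rest on a level near the floor. With trimmed mean of M values (TMM) or median-of-ratios scaling ADA fell under the floor in PBMC and was not called, at log2 ratios of -2.49 and -2.48 for BM-MSC and -1.95 and -1.94 for BMAC. With 5 CPM added the log2 ratios were -1.45 and -1.26. BM-MSC and BMAC were both under the floor, and the level in BM-MSC was 0.480 of that in BMAC (0.224 to 0.981).

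DPP4 encodes CD26, a dipeptidyl peptidase of the cell surface that in humans binds ADA and holds it there. Its level was 267.0 CPM in BM-MSC (259.3 to 274.8), 302.3 CPM in BMAC (293.6 to 311.2) and 98.3 CPM in PBMC (93.5 to 103.4). Both marrow libraries were above PBMC, whereas for ADA both were below it. The ratio to PBMC was 2.71 for BM-MSC (2.56 to 2.88) and 3.07 for BMAC (2.90 to 3.26), log2 ratios of 1.43 and 1.61 and thus under the size rule. BM-MSC stood at 0.883 of BMAC (0.847 to 0.920).

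ADK, which recaptures adenosine as AMP inside the cell, also stood lower in the marrow libraries than in PBMC, by less than ADA. Its level was 58.1 CPM in BM-MSC (54.6 to 61.8), 90.9 CPM in BMAC (86.1 to 95.8) and 165.0 CPM in PBMC (158.6 to 171.5). All 3 intervals were apart, with PBMC highest and BM-MSC lowest. PBMC held 2.84-fold the level of BM-MSC (2.64 to 3.06) and 1.82-fold that of BMAC (1.70 to 1.94), and BM-MSC held 0.640 of the level of BMAC (0.589 to 0.695). None of these ratios passed the rule.

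SLC29A1 encodes ENT1, the equilibrative transporter that carries adenosine across the plasma membrane in either direction. It stood at 5.04 CPM in BM-MSC (4.03 to 6.22), 5.29 CPM in BMAC (4.19 to 6.58) and 6.67 CPM in PBMC (5.44 to 8.09), under the floor in each. The intervals overlapped throughout. The ratio was 0.756 for BM-MSC to PBMC (0.561 to 1.02), 0.793 for BMAC to PBMC (0.585 to 1.07) and 0.952 for BM-MSC to BMAC (0.694 to 1.31). No order of the libraries can be read from these values beyond counting error.

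The receptors differ in their coupling: ADORA2A and ADORA2B raise cyclic AMP through stimulatory G proteins, ADORA2B needing more adenosine, and ADORA1 lowers it through inhibitory ones. ADORA2A stood at 21.1 CPM in BM-MSC (19.0 to 23.4), 28.1 CPM in BMAC (25.5 to 30.9) and 7.25 CPM in PBMC (5.97 to 8.72). Both marrow libraries were above PBMC, by 2.92-fold in BM-MSC (2.35 to 3.64) and 3.88-fold in BMAC (3.14 to 4.82). Neither ratio passed the rule, but the log2 ratio of BMAC against PBMC was 1.82, and 2.07 under TMM or 2.08 under median-of-ratios scaling, where it was called. BM-MSC held 0.753 of the level in BMAC (0.652 to 0.868).

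ADORA2B stood at 14.3 CPM in BM-MSC (12.6 to 16.2), 46.2 CPM in BMAC (42.9 to 49.8) and 10.2 CPM in PBMC (8.70 to 11.95). BMAC was high, and the other libraries lay close to each other and to the floor. The level in BMAC was 4.52-fold that in PBMC (3.80 to 5.40), a log2 ratio of 2.07 and past the rule, with 13.5% of measured genes as far towards BMAC. With 5 CPM added the log2 ratio was 1.75 and the call was lost. BM-MSC stood at 1.40-fold PBMC (1.14 to 1.72) and at 0.309 of BMAC (0.266 to 0.358), a log2 ratio of -1.63 that was not past the rule, with 4.76% of measured genes as far towards BMAC. ADORA2B overlaps the row ZSWIM7, which held 330, 720 and 403 counts in BM-MSC, BMAC and PBMC against 244, 699 and 158 for ADORA2B, so its values are uncertain. ADORA1 was low everywhere, at 2.64 CPM in BM-MSC (1.92 to 3.53), 2.25 CPM in BMAC (1.56 to 3.14) and 1.10 CPM in PBMC (0.641 to 1.76), and overlaps MYBPH, with 20, 30 and 6 counts. BM-MSC and BMAC did not differ in ADORA1 beyond counting error, at a ratio of 1.17 (0.735 to 1.89). ADORA3, a receptor outside the chosen set that overlaps TMIGD3, had 0 counts in BM-MSC and BMAC and 19 in PBMC.

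**Figure D2:**
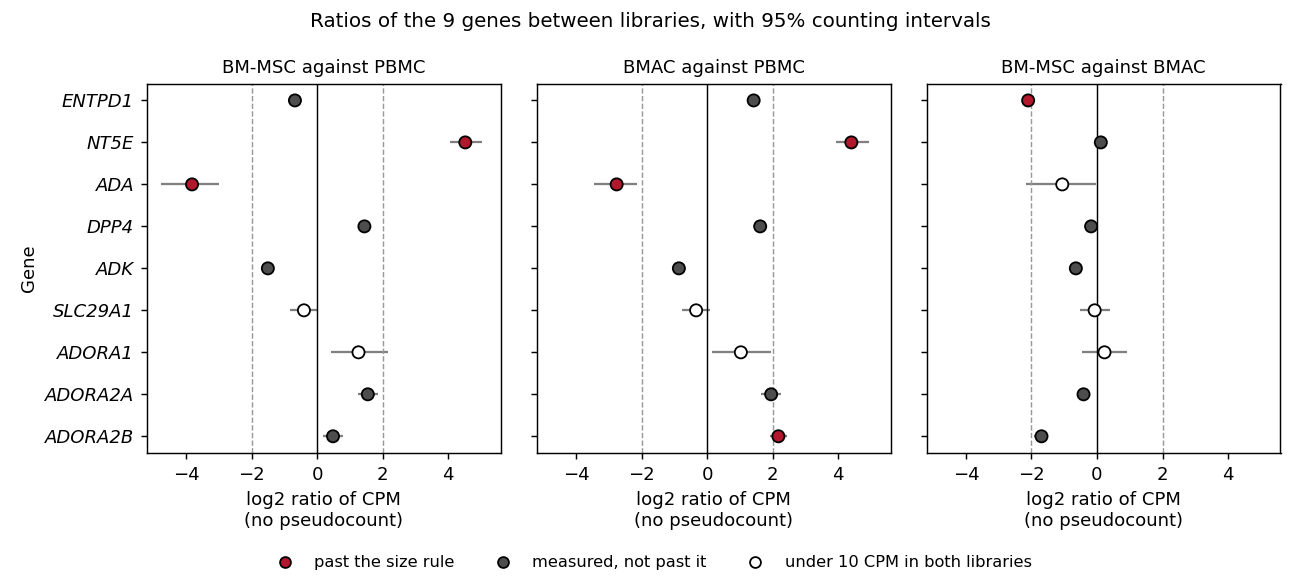
Ratio of CPM for the 9 genes in each pair of libraries on a log2 scale without pseudocount, with 95% counting intervals; dashed lines mark 4-fold. Red points pass the size rule, which adds 1 CPM: NT5E and ADA in both pairs with PBMC, ADORA2B in BMAC against PBMC, and ENTPD1 in BM-MSC against BMAC.

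In BM-MSC against PBMC, 1 of 7 measured genes was called higher (NT5E) and 1 lower (ADA), where 30% of 11428 measured genes in the files were called, 14.3% towards BM-MSC and 15.7% towards PBMC. The median log2 ratio of the 7 genes was 0.45, against -0.16 over all measured genes. In BMAC against PBMC, 2 of 7 were higher (NT5E and ADORA2B) and 1 lower (ADA), against 26.8% of 11371 genes called, 14% towards BMAC and 12.8% towards PBMC. The median was 1.61, against -0.12 over all. In BM-MSC against BMAC, 1 of 6 was called, lower in BM-MSC (ENTPD1), with medians of -0.51 for the 6 genes and -0.09 over all, and 6.11% of 10303 genes called, 2.9% towards BM-MSC and 3.21% towards BMAC. The shares called among so few genes cannot be set apart from this background. NT5E and ADORA2A reached the floor in the pairs with PBMC through the marrow library alone and ADA through PBMC alone, which favours a difference in that direction, so these counts are descriptions. Both comparisons with PBMC use the same PBMC library. TMM scaling moved the median of all measured genes to 0.23 in BM-MSC against PBMC and 0.21 in BMAC against PBMC, and the share of called genes that were higher in the marrow library to 58.5% in BM-MSC and 60.0% in BMAC, against 47.6% and 52.3% with library totals. Relative to the median of all measured genes under library totals, the log2 ratios to PBMC were 4.19 and 4.04 for NT5E, -2.58 and -2.06 for ADA, -1.33 and -0.73 for ADK, 1.59 and 1.73 for DPP4 and 0.61 and 2.19 for ADORA2B, in BM-MSC and BMAC in that order.

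Ratios of the counts of a pair of genes within 1 library do not depend on library totals or scaling. They still hold each gene's own counting efficiency, so only their change between libraries is compared. The ratio of NT5E to ADA counts was 70.2 in BM-MSC (40.8 to 132), 31.0 in BMAC (20.7 to 48.8) and 0.217 in PBMC (0.147 to 0.312). The ratio was 323-fold (162 to 669) higher in BM-MSC and 143-fold (80.6 to 256) higher in BMAC than in PBMC, with intervals from the conditional odds ratio. The value in PBMC rests on 36 counts of NT5E, beside the 123 counts of the overlapping row LOC102157437.

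The ratio of NT5E to ENTPD1 counts, the last enzyme of the chain over the first, was 1.84 in BM-MSC (1.64 to 2.05), 0.395 in BMAC (0.362 to 0.430) and 0.0500 in PBMC (0.0347 to 0.0699). Here the marrow populations stood apart, with the ratio in BM-MSC 4.65-fold that in BMAC (4.04 to 5.35). NT5E itself differed little between them. The ratio of NT5E to ADK was 0.919 in BM-MSC (0.839 to 1.01), 0.542 in BMAC (0.495 to 0.593) and 0.0141 in PBMC (0.00987 to 0.0196). ADK to ADA, the kinase over the deaminase, was 76.3 (44.4 to 144), 57.2 (38.3 to 89.7) and 15.3 (13.1 to 18.1) in the same order. It was higher in both marrow libraries than in PBMC, by 4.97-fold in BM-MSC (2.81 to 9.58) and 3.73-fold in BMAC (2.41 to 6.02), and did not differ between BM-MSC and BMAC beyond counting error (1.33-fold, 0.648 to 2.86).

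For the receptors, the ratio of ADORA2B to ADORA2A counts was 0.676 in BM-MSC (0.572 to 0.797), 1.64 in BMAC (1.46 to 1.86) and 1.41 in PBMC (1.10 to 1.81). BM-MSC was the low library, at 0.411 of BMAC (0.334 to 0.506) and 0.479 of PBMC (0.354 to 0.648). Between BMAC and PBMC the ratio did not differ beyond counting error, at 1.17-fold (0.880 to 1.54).

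**Figure D3:**
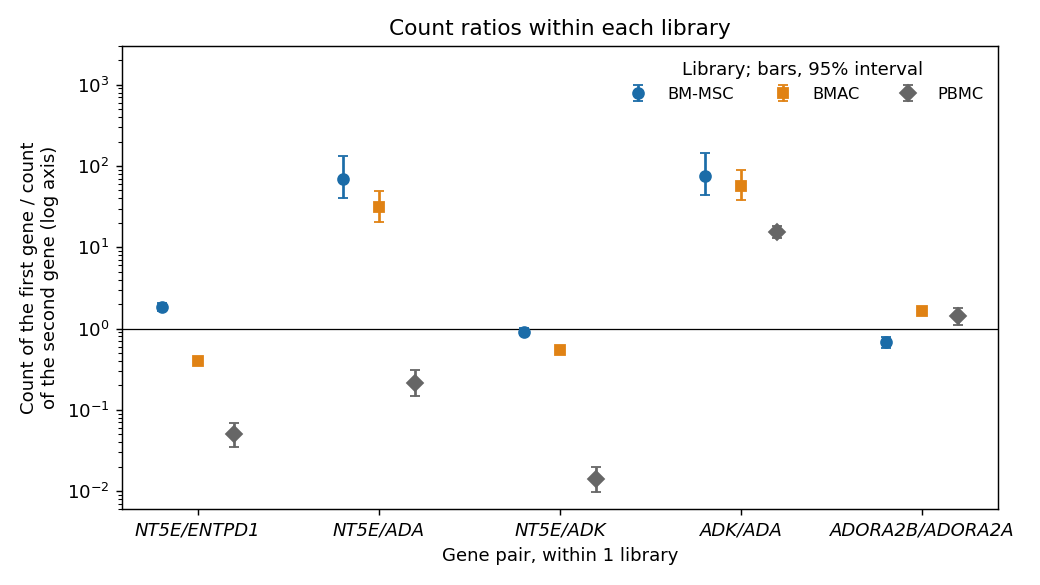
Count of the first gene divided by the count of the second within the same library, on a log axis, for 5 gene pairs in BM-MSC, BMAC and PBMC; bars are 95% intervals. The 3 ratios with NT5E on top are lowest in PBMC, and ADORA2B/ADORA2A is lowest in BM-MSC.

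Genes with the most similar pattern across the 3 libraries were sought for the 4 genes called in any pair, by the distance between centred log2(CPM + 1) profiles among 10455 genes with a name other than a LOC symbol that reached 10 CPM in any library. With 3 libraries, many genes share a pattern. For NT5E the nearest were LUZP1 (distance 0.03), LEPROT (0.05) and OLFML3 (0.05, overlapping HIPK1 and LOC102157897). For ENTPD1 they were CKAP2L (0.04), NPSR1 (0.06, overlapping DPY19L1) and ZC3H12A (0.08), and for ADA PPP3CC (0.02), TLE3 (0.03) and ATAD2B (0.04). ADORA2B had CEP112 (0.10), C6H1orf168 (0.11, overlapping PRKAA2) and UBTD1 (0.11, overlapping MMS19).

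The wider purinergic pathway was described through 11 lists with 155 genes that had a row. Of 106 measured in BM-MSC against PBMC, 18 were higher and 22 lower (37.7% called), and of 106 in BMAC against PBMC, 22 were higher and 17 lower (36.8%). Of 91 in BM-MSC against BMAC, 1 was higher and 9 lower (11%). The shares over all genes were the 30%, 26.8% and 6.11% given above. List genes found mostly in leukocytes reached the floor through PBMC alone. In the pairs with PBMC, others such as GJA1, CAV1 and FAP reached it through the marrow library alone. Between the marrow populations, ABCC4 reached it through BMAC alone. Each case favours a difference towards the library that reached the floor, so these shares are descriptions.

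Other enzymes that act on extracellular nucleotides went both ways. In each pair with PBMC, 2 of 9 measured were higher in the marrow library and 1 lower, with medians of 0.25 for BM-MSC and 0.34 for BMAC. ENTPD3, another surface enzyme that hydrolyses ATP and ADP (overlapping LOC110256427), stood at 46.6 CPM in BM-MSC, with 79.0 CPM in BMAC and 1.75 CPM in PBMC, 26.7-fold (18.2 to 40.7) and 45.2-fold (30.9 to 68.9) above PBMC. ENPP1, which splits ATP into AMP and pyrophosphate, stood at 85.6, 23.4 and 5.63 CPM and was called in BM-MSC (15.2-fold, 12.2 to 19.1). ENTPD7, an intracellular family member that overlaps LOC100156375, stood at 84.1, 161 and 23.8 CPM and was called in BMAC. CD38, which starts an alternative route to adenosine from NAD, was the lower gene, at 0.469 CPM in BM-MSC, with 1.26 CPM in BMAC and 135 CPM in PBMC. None of 7 was called between BM-MSC and BMAC, with a median of -0.37.

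Among channels and carriers linked to ATP or cyclic nucleotide release, 3 of 5 were higher and 1 lower in BM-MSC than in PBMC (median 2.14), and 2 of 5 were higher in BMAC (median 1.42). With 5 CPM added 1 was higher and 1 lower in BM-MSC. GJA1, the gap junction and hemichannel protein connexin 43, stood at 270 CPM in BM-MSC, with 477 CPM in BMAC and 0.129 CPM (2 counts) in PBMC. GJC1, another connexin gene, stood at 18.3, 26.6 and 1.42 CPM and LRRC8A, a volume-regulated anion channel subunit, at 63.5, 38.2 and 13.7 CPM. ABCC4, an exporter of cyclic nucleotides, went the other way, at 6.74 CPM in BM-MSC, with 38.3 CPM in BMAC and 128 CPM in PBMC. It was the 1 of 5 called between the marrow populations (median -0.52), 5.68-fold lower in BM-MSC than in BMAC (4.64 to 7.004).

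Inside the cell, most enzymes of AMP supply did not pass the rule. In BM-MSC 2 of 8 were higher than in PBMC and 1 lower (median 0.37), in BMAC 1 of 7 was higher and 1 lower (median -0.01), and 1 of 8 was lower in BM-MSC than in BMAC (median 0.01). In BMAC the lower gene, NT5C3A, was not called with TMM factors, median-of-ratios factors or 5 CPM added. AK4, a mitochondrial adenylate kinase, was the gene called in all 3 pairs, at 64.7 CPM in BM-MSC, with 318 CPM in BMAC and 3.69 CPM in PBMC. AK1, the cytosolic adenylate kinase, was called in BM-MSC at 20.5 CPM against 0.518 CPM in PBMC, and NT5C3A, a cytosolic nucleotidase, was lower in both, at 11.1 and 13.6 CPM against 68.2 CPM in PBMC.

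Clearance genes beyond ADA and ADK that were called all lay towards PBMC. Of 8 measured, 3 were lower in BM-MSC (median -1.37) and 2 in BMAC (median -1.10), with 0 of 6 called between the marrow populations (median -0.38) and no test behind any of these counts. ADA2, the secreted adenosine deaminase, which overlaps LOC110260760, stood at 0.176 CPM in BM-MSC (3 counts), with 0.331 CPM in BMAC (5 counts) and 44.0 CPM in PBMC. It was 250-fold (85.2 to 1216) and 133-fold (56.7 to 411) higher in PBMC. ADA and ADA2 both had their highest level there. Both also reached the floor through PBMC alone, which favours that direction. SAMHD1, listed with them although it is a deoxynucleotide hydrolase, overlaps TLDC2 and stood at 25.8, 29.9 and 253 CPM. AMPD3, an AMP deaminase gene overlapping RNF141, stood at 9.26, 15.4 and 48.9 CPM and was called in BM-MSC. In the S-adenosylhomocysteine and methylthioadenosine cycle, an intracellular source of adenosine, 1 of 8 was lower in each pair with PBMC (medians 0.18 for BM-MSC and -0.07 for BMAC) and 0 of 7 was called between the marrow populations (median 0.20). That gene was AHCYL2, a relative of the hydrolase, at 13.2, 16.3 and 312 CPM. Of the other nucleoside transporters 1 of 6 was measured, SLC28A1, a concentrative carrier, at 11.1 CPM in BM-MSC, with 13.1 CPM in BMAC and 6.28 CPM in PBMC, and it was not called.

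P2 receptor genes were listed by symbol, and most of them encode receptors that sense ATP, ADP and related nucleotides before they are broken down. They included genes far lower in the marrow libraries and others higher in BMAC. Of 9 measured, 1 was higher and 6 lower in BM-MSC than in PBMC (median -2.73), and of 11 in BMAC, 3 were higher and 6 lower (median -3.14). With 5 CPM added these became 0 higher and 4 lower in BM-MSC and 1 higher and 4 lower in BMAC. The lower genes were P2RY8, P2RY10, P2RY12, P2RY14, P2RX5 and P2RX7 in both, all of them at the floor through PBMC alone. P2RY8 and P2RY10 carry the family symbol but are not nucleotide receptors, and they enter the counts and medians above. P2RY12 and P2RX7 overlap MED12L and IFT81. P2RY14, a UDP-sugar receptor overlapping MED12L, stood at 2.64, 1.79 and 81.4 CPM in BM-MSC, BMAC and PBMC. P2RX4, an ATP-gated channel, was higher in both marrow populations, at 26.7, 32.1 and 4.53 CPM. P2RY2, a receptor for ATP and UTP, stood at 5.51 CPM in BM-MSC, with 76.4 CPM in BMAC and 0.906 CPM in PBMC, and P2RY6, a UDP receptor, at 0.644, 12.8 and 1.04 CPM. These were the 2 of 3 measured that differed between the marrow populations (median -3.07), 13.9-fold (11.2 to 17.3) and 19.8-fold (10.8 to 40.3) lower in BM-MSC than in BMAC. P2RY2 and P2RY6 reached the floor through BMAC alone, here and against PBMC, and P2RX4 reached it against PBMC through the marrow library alone. This favours a difference in that direction, so these counts and medians are descriptions.

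Downstream of the receptors, 4 of 24 genes of G protein coupling and cyclic AMP were higher and 6 lower in BM-MSC than in PBMC (median -0.64), 3 higher and 5 lower in BMAC (median -0.65), and 1 of 20 lower in BM-MSC than in BMAC (median -0.03). GNAI1, an inhibitory G protein subunit, stood at 92.1 CPM in BM-MSC, with 64.8 CPM in BMAC and 1.04 CPM in PBMC. GNAI2 and GNAI3, inhibitory subunits of the same list, were not called in any pair. In BM-MSC, BMAC and PBMC, GNAI2 stood at 619, 472 and 612 CPM and GNAI3 at 97.4, 47.6 and 50.4 CPM. GNAS, the stimulatory subunit that overlaps LOC110257458, was within the rule at 333, 314 and 415 CPM. PDE3B and PDE7A, phosphodiesterases that degrade cyclic AMP, were far lower in the marrow libraries, PDE3B at 6.03 and 5.42 CPM against 682 CPM in PBMC and PDE7A at 5.39 and 4.03 CPM against 338 CPM. Other cyclic AMP phosphodiesterases went both ways. PDE4A was called higher in both marrow libraries, at 48.3 and 55.4 CPM in BM-MSC and BMAC against 8.55 CPM in PBMC. PDE3A was called higher in BM-MSC, at 38.0 and 30.2 CPM against 8.61 CPM. PDE4D was called lower in BMAC, at 96.0 and 65.9 CPM against 341 CPM. PDE8A was called lower in BM-MSC, at 67.6 and 117 CPM against 293 CPM. PDE4B separated the marrow populations, at 25.1 CPM in BM-MSC, with 221 CPM in BMAC and 389 CPM in PBMC. Of genes that bind or respond to cyclic AMP signals, 1 of 11 was lower in BM-MSC than in PBMC (CREB1, median -1.25), 1 of 10 higher and 1 lower in BMAC (median -1.05), and 1 of 12 higher in BM-MSC than in BMAC (FOS, median -0.26). NR4A2, a nuclear receptor induced by cyclic AMP, stood at 82.0, 251 and 35.5 CPM and was called in BMAC. FOS stood at 11.1 CPM in BM-MSC, with 1.92 CPM in BMAC and 22.1 CPM in PBMC.

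Hypoxia genes were listed because in human cells NT5E and ADORA2B are known targets of hypoxia-inducible factors. Of 17 measured, 4 were higher and 2 lower in BM-MSC than in PBMC (median 0.61), 8 higher and 0 lower in BMAC (median 1.61), and 4 lower and 0 higher in BM-MSC than in BMAC (median -0.82). With 5 CPM added 2 were higher and 1 lower in BM-MSC than in PBMC. VEGFA, a vascular growth factor, stood at 14.4 CPM in BM-MSC, with 261 CPM in BMAC and 1.55 CPM in PBMC, and BNIP3, a mitophagy gene, at 83.7, 566 and 21.2 CPM. EGLN3, an oxygen-sensing hydroxylase, was low in BM-MSC at 1.29 CPM, against 15.1 CPM in BMAC and 15.4 CPM in PBMC. ADM, the vasodilator adrenomedullin, stood at 68.7 CPM in BM-MSC, with 73.3 CPM in BMAC and 0.129 CPM in PBMC, and SLC2A1, a glucose transporter overlapping ZNF691, at 117, 98.9 and 3.11 CPM. The hypoxia genes thus had no single order across the libraries. Their link to the 9 genes was not tested, and oxygen conditions are not given in the labels.

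Among relatives and partners of CD26 and CD73, 2 of 6 were higher in each marrow library than in PBMC (medians -0.10 for BM-MSC and -0.16 for BMAC), and 0 of 5 was called between BM-MSC and BMAC (median -0.17). The genes were CAV1, the caveolar coat protein, at 239, 279 and 0.518 CPM, and FAP, the fibroblast surface protease closest to DPP4 in sequence, at 45.4, 70.0 and 0.324 CPM. The 5 proliferation markers summed to 15.1 CPM in BM-MSC, with 116 CPM in BMAC and 158 CPM in PBMC. Endothelial markers, whose cells carry both CD39 and CD73, summed to 19.0, 32.6 and 164 CPM over 7 genes, of which PECAM1 made up 15.2, 27.7 and 145 CPM. The order of these sums thus rests mainly on PECAM1. TEK reached the floor in PBMC alone, at 12.2 CPM. CDH5, KDR and EMCN had at most 10 counts in any library, and CLDN5 had 0 counts in all 3. The 8 erythroid and platelet markers summed to 48.7, 38.4 and 42.4 CPM, with HBB, HBM and AHSP at 0 in both marrow libraries. Of these sums GP9, which overlaps RAB43, made up 45.7, 34.1 and 18.2 CPM, while ITGA2B, a platelet integrin, ran the other way at 1.82, 0.595 and 14.8 CPM and was called lower in both marrow libraries. The part of these cell types and of proliferation in the values of the 9 genes was not tested.

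**Figure D4:**
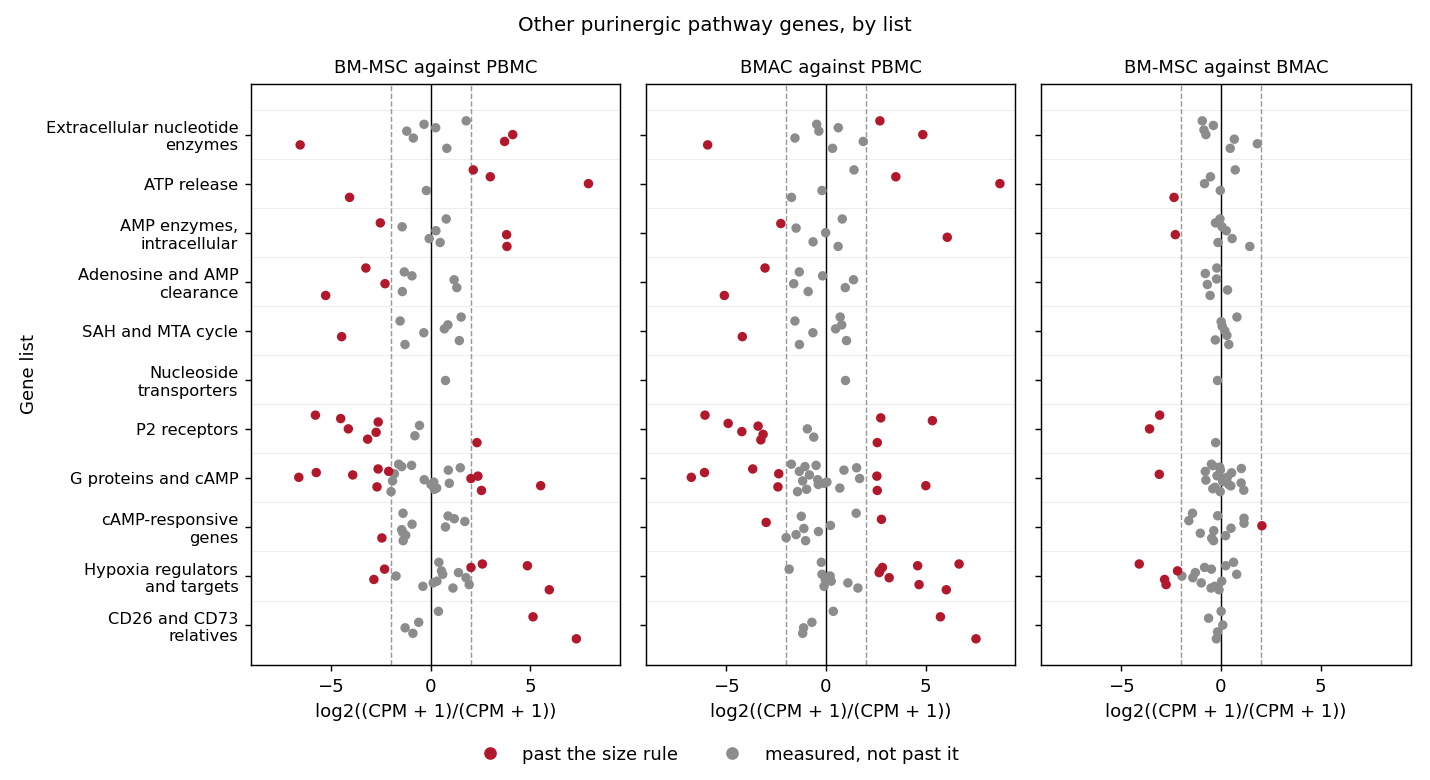
log2((CPM + 1)/(CPM + 1)) of the measured genes of 11 purinergic pathway lists in each pair of libraries, 1 point per gene, red where the size rule is passed; dashed lines mark 2 and -2. Clearance genes and P2 receptors lie mostly towards PBMC, hypoxia genes towards BMAC, and few genes pass between BM-MSC and BMAC.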

How the data were processed

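The authors deposited whole-number counts per gene row, with totals that differ between libraries, so they were taken as raw counts. The submitters' processing notes list Bowtie2 and bedtools and state no version. Genome build, annotation and strand setting: not given in the sources used here. In all, 26965 rows carry 26466 symbols. Rows sharing a symbol were added up, which touched 0 of the 9 genes. All symbols were found in the RefSeq table of Sscrofa11.1, used only for overlaps between genes placed on a chromosome. A row overlapping a named gene is given when it holds at least 25% of that gene's count.

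CPM used library totals. CPM intervals are exact Poisson and ratio intervals exact conditional (Clopper-Pearson; conditional odds ratio for ratios of ratios), computed with scipy 1.17.1. Reads had no molecular identifiers in these files, so intervals cover counting error only. A count of 0 allows up to 3 counts, which is 0.176, 0.198 and 0.194 CPM in BM-MSC, BMAC and PBMC. Alternatives used edgeR 4.0.16 and DESeq2 1.42.0 for scaling factors only. The calls and intervals were run on simulated Poisson counts with 200 altered genes, all well above the floor on average. Such counts hold counting error alone, so the run does not cover genes near the floor or spread between replicates. Pathway genes named are those with the 3 largest log2 ratios in size per list and pair, plus genes that make up a small count. GNAS, GNAI2, GNAI3, PDE3A, PDE4A, PDE4D, PDE8A, P2RY12, P2RX5 and P2RX7 were chosen after their values were seen. The markers THY1, ENG, FN1, ACTA2, CDH5, KDR, EMCN and TEK were chosen in the same way. The 9 genes and all lists were chosen with earlier results of these data known. ACP3, NT5C1B, NR4A1 and PF4, with no row of that symbol, were not analysed here.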

Additional observations from a re-analysis of the deposited data

How the results depend on the processing

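No paired analysis was possible because each population has 1 library, and for the same reason no library could be left out. The number of the 9 genes called was 2 in BM-MSC against PBMC, 3 in BMAC against PBMC and 1 in BM-MSC against BMAC. Using library totals without the rows over 1% of counts, adding 0.5 CPM, a floor of 1 CPM, no floor and the highest row per symbol gave the same counts. For BM-MSC against PBMC the count was 1 (NT5E) with TMM factors, median-of-ratios factors, 5 CPM added, a floor of 50 CPM or a log2 limit of 3, and 5 with a log2 limit of 1. For BMAC against PBMC it stayed at 3 with TMM and median-of-ratios factors, with ADORA2A in place of ADA, and was 1 with 5 CPM added, 0 with a floor of 50 CPM, 6 with a log2 limit of 1 and 1 with a log2 limit of 3. No test stands behind that 0. For BM-MSC against BMAC it was 0 with median-of-ratios factors, 5 CPM added or a log2 limit of 3, and 2 with a log2 limit of 1. Leaving out the genes that overlap another row, an alternative chosen after seeing the data, left 1 (ADA) in each pair with PBMC and 1 (ENTPD1) between the marrow populations. ADA lost its call under TMM and median-of-ratios factors because its level in PBMC came under 10 CPM, with BMAC also under the log2 limit. The pathway genes of all lists together called in BM-MSC against BMAC numbered 6 with 5 CPM added, against 10, and the other alternatives kept the counts over all lists within 1.5 times. Single lists moved further. With 5 CPM added, release channels had 2 called in BM-MSC against PBMC, compared with 4, and 0 between the marrow populations, compared with 1. P2 receptors had 4, 5 and 1 called in BM-MSC against PBMC, BMAC against PBMC and BM-MSC against BMAC, compared with 7, 9 and 2. Hypoxia genes had 3 in BM-MSC against PBMC, compared with 6, and cyclic AMP-responsive genes 1 in BMAC against PBMC and 0 between the marrow populations, compared with 2 and 1. AMP supply in BMAC against PBMC had 1 with TMM factors, median-of-ratios factors or 5 CPM added and 4 with a floor of 1 CPM, compared with 2. A floor of 1 CPM gave 2 release channels between the marrow populations, and median-of-ratios factors 2 cyclic AMP-responsive genes in BM-MSC against PBMC. Of 297 single-gene values under an alternative, 265 stayed within counting error, 32 moved by more, and 0 of the called ones changed sign. A change of floor or log2 limit cannot move a ratio, so all values under those alternatives are among the 265 by construction. The tally is therefore no measure of stability. Depth limits SLC29A1, ADORA1, the marrow levels of ADA and the PBMC level of NT5E, which rest on 13 to 103 counts.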
